A study of Mus musculus with 6 samples.

Results

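A set of 146 protein-coding genes was near or at 0 in all 3 liver libraries of mice given water and measurable in 1 liver library of mice given polystyrene microplastics (PS-MP). The genes were chosen by a rule on measured values, as all those annotated protein-coding in GENCODE M21 with at least 0.5 FPKM in PS-MP replicate 3 and at most 0.05 FPKM in each water library. FPKM divides the reads of a gene by its exon length and by the size of the library. The rule found 146 of 22028 protein-coding genes, and 146 of the 7797 (1.87%) that were at most 0.05 FPKM in each water library. Many encode proteins of neurons.

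Liver RNA was sequenced from male C57BL/6 mice, a common inbred strain, whose age at the first dose was 6 weeks. In the PS-MP group (3 libraries) 0.4 mg of polystyrene microplastics per day was given by mouth 2 times a week for 8 weeks, and in the water group (3 libraries) water was given on that schedule. No genetic change or other agent is named for either group. Separate animals per library are not stated, so the spread between libraries may be technical.

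The brain is built of neurons, which signal at synapses, and of glia, among them the oligodendrocytes that wrap axons in myelin and the astrocytes that take up released transmitter. Excitatory neurons release glutamate and inhibitory neurons release GABA, from vesicles that fuse with the membrane through SNARE proteins. Hepatocytes, the main cells of liver, keep many neuronal genes silent, in part through the repressor REST, which binds a DNA element called RE1 near many neuronal genes.

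All 6 libraries carried liver transcripts at a high level. Totals were 13082210 to 15938284 reads in PS-MP and 14520402 to 16948343 reads in water. Albumin stood at 24624.2 to 32191.4 FPKM in PS-MP and 30947.0 to 33952.7 FPKM in water, with the lowest value in PS-MP replicate 3. Cyp2e1, a P450 of central hepatocytes, was at 4204.9 to 4855.1 FPKM in PS-MP and 4317.8 to 4708.8 FPKM in water. The 146 genes are a small part of this RNA: they took 0.0842% of the reads of PS-MP replicate 3.

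Summed over the 146 genes, PS-MP replicates 1, 2 and 3 had 1069, 405 and 12563 reads, against 95, 88 and 89 reads in water replicates 1, 2 and 3. As CPM, which corrects for library size alone, these were 81.7, 25.4 and 842 in PS-MP, against 6.26, 5.19 and 6.13 in water. The values for PS-MP replicate 3 and for water follow from the rule, whereas PS-MP replicates 1 and 2 were not used by it. Both lay above every water library, and replicate 1 lay above replicate 2. The rule held water low for each gene, so part of the excess over water is fixed by it.

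The word absent needs a limit. Of the 146 genes, 76 had no read in any water library and 70 had at least 1, with 13 reads as the most in any one library (Ntrk2, a receptor for the growth factor BDNF, in water replicate 1). A count of 0 allows up to 3 reads, which is 0.201 CPM in PS-MP replicate 3. In RNA from whole tissue, a smaller number of cells that express a gene and less RNA per cell cannot be told apart.

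**Figure D1:**
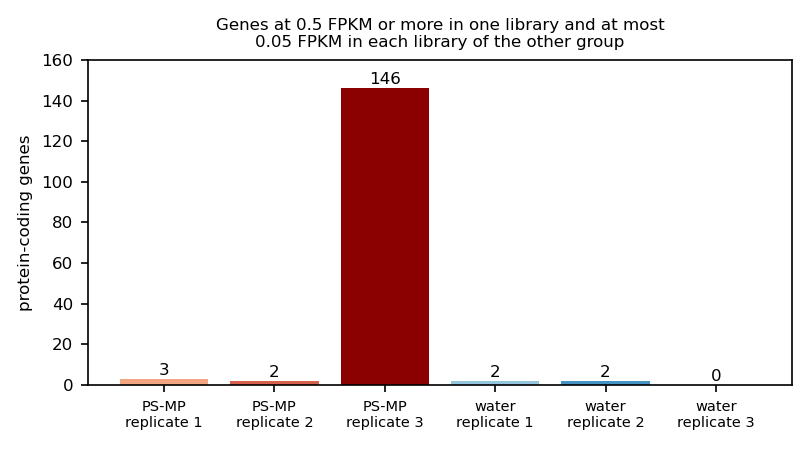
Number of protein-coding genes (vertical axis) at 0.5 FPKM or more in the library named below each bar and at most 0.05 FPKM in each of the 3 libraries of the other group. PS-MP replicate 3 has 146 such genes, PS-MP replicates 1 and 2 have 3 and 2, and water replicates 1, 2 and 3 have 2, 2 and 0.

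The same thresholds were applied to every other library, as the bar plot of genes by library shows. With PS-MP replicate 1 in place of replicate 3, 3 genes passed: Snap25, Camk2a and the predicted gene Gm6020, the last with 1 read. With PS-MP replicate 2, 2 passed, the predicted gene Gm17349 (11 reads, and 0 in every other library) and A930002H24Rik (4 reads). Turned round, with at most 0.05 FPKM in each PS-MP library, water replicate 1 gave 2 genes (Defa22, an intestinal defensin, with 6 reads, and a predicted gene with 1 read). Water replicate 2 gave the pancreatic protease genes Prss2 (7 reads) and Ctrb1 (8 reads). No gene passed for water replicate 3.

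At the threshold in PS-MP replicate 3, the genes just inside were Rab3c at 0.5007 FPKM and Cnksr2 at 0.5063 FPKM, and those just outside were Sept5 at 0.4965 and Snph, a syntaxin-binding protein of axons, at 0.4946 FPKM. At the threshold in water, Gnao1 (highest water value 0.0498 FPKM) and Ube2ql1 (0.0493) lay just inside, and the kinase gene Brsk1 (0.0504) and C1qtnf4 (0.0534) just outside. Values ran without a gap across both limits.

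Levels in PS-MP replicate 3 were low and uneven. The median of the 146 genes was 0.767 FPKM, 48 genes reached 1 FPKM and 13 reached 2 FPKM, and the 20 highest held 38.0% of the summed FPKM. Reads per gene ran from 1 to 860 with a median of 64. Only 5 genes had under 10 reads, namely Npy (9), the chemokine gene Ccl17 (4) and the predicted genes Gm10959, Gm17571 and Gm17374 with 1 read each on exons of at most 102 bases. Those 3 predicted genes are in the set through their short length.

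The gene with the highest level was Snap25 (chromosome 2, 136713453 to 136782428, plus strand, GRCm38), the SNARE protein of the nerve terminal membrane. It was at 0.687, 0.176 and 8.49 FPKM in PS-MP replicates 1, 2 and 3, against 0.0097, 0.0174 and 0 FPKM in water. Vsnl1, a neuronal calcium sensor (chromosome 12, 11325242 to 11436613, minus strand), followed at 0.469, 0.0642 and 6.55 FPKM in PS-MP, against 0 in each water library. Both genes show the same order of libraries, replicate 3 far above replicate 1, replicate 1 above replicate 2, and water at or close to 0. The rule set replicate 3 high and water low, so only the values of replicates 1 and 2 were free.

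Camk2a, the alpha subunit of the calcium kinase of forebrain excitatory synapses (chromosome 18, 60925618 to 60988152, plus strand), was at 0.594, 0.160 and 6.02 FPKM in PS-MP, against 0.0088, 0.0237 and 0 FPKM in water. Eef1a2, the translation elongation factor form of neurons and muscle (chromosome 2, 181147653 to 181157014, minus strand), was at 0.403, 0.0903 and 5.31 FPKM in PS-MP, against 0 in each water library. Skeletal muscle also uses Eef1a2, and its 10 marker genes that were at most 0.05 FPKM in water had 14 reads in PS-MP replicate 3, from 5 of them (Acta1 5, Atp2a1 5, Tnnt3 2, Myh2 1 and Actn3 1). For Camk2a and Eef1a2 too no PS-MP value overlapped the water values, which the rule held low.

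**Figure D2:**
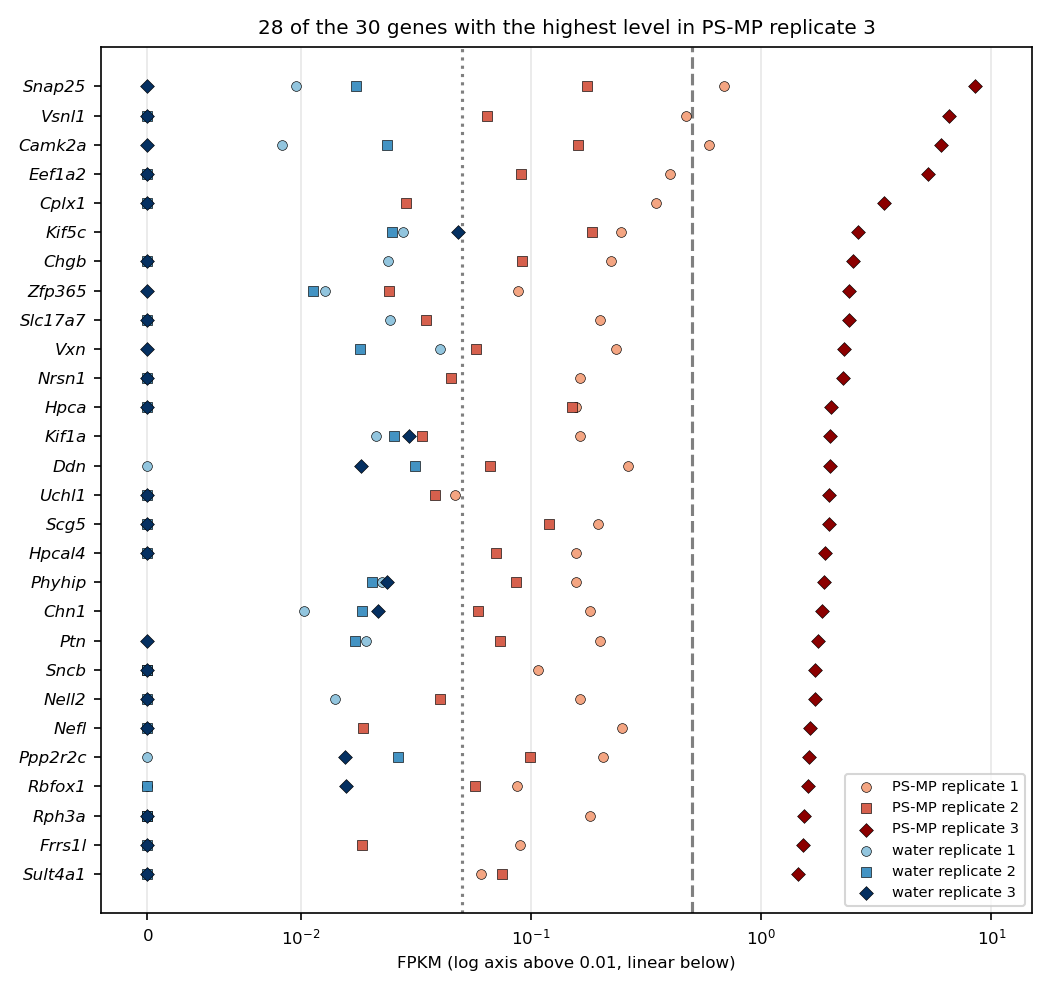
FPKM (horizontal axis, log above 0.01) in each of the 6 libraries for 28 of the 30 genes with the highest level in PS-MP replicate 3, each point 1 library. The dotted line marks 0.05 FPKM and the dashed line 0.5 FPKM, the limits of the rule. PS-MP replicate 3 spans 1.44 to 8.49 FPKM, and many water points are at 0. PS-MP replicates 1 and 2 lie between replicate 3 and water, except in Sncb and Rph3a, where replicate 2 is at 0 like water.

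Another 15 of the 20 genes with the highest level lay between 1.83 and 3.43 FPKM in PS-MP replicate 3. They were Cplx1, Kif5c, Chgb, Zfp365, Slc17a7, Vxn, Nrsn1, Hpca, Kif1a, Ddn, Uchl1, Scg5, Hpcal4, Phyhip and Chn1. In each of the 20 genes, PS-MP replicate 1 was above replicate 2. Replicate 2 was above every water library, and the rule held water to at most 0.05 FPKM. The margin was small in Kif1a, at 0.0336 FPKM in PS-MP replicate 2, against 0.0212 to 0.0295 FPKM in water, and Uchl1, a ubiquitin hydrolase of neurons, rested on 1 read in each of PS-MP replicates 1 and 2.

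By known role, 120 of the 146 genes could be sorted into 12 groups after their identities were seen, and 26 were left without a role. Synaptic vesicle release and recycling, with 19 genes, and calcium sensors, kinases and G protein signalling, also with 19, were the largest groups. Among the release genes, Cplx1, the complexin that clamps SNARE complexes, had 10, 1 and 112 reads in PS-MP, against 0 in water. Slc17a7, the vesicular glutamate transporter of cortex and hippocampus (chromosome 7, 45163949 to 45176142, plus strand), had 14, 3 and 193 reads in PS-MP, against 2, 0 and 0 in water. Rph3a, an effector of the vesicle GTPase RAB3, had 11, 0 and 106 reads in PS-MP, against 0 in water.

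The vesicle proteins Sv2a and Sv2b, the synapsin Syn2, which ties vesicles to actin, and the active zone scaffolds Bsn and Rims1 are in the same group, at 1.32, 0.90, 0.94, 0.59 and 0.75 FPKM in PS-MP replicate 3. So are 4 genes of clathrin-mediated vesicle retrieval, Amph, Snap91, Sh3gl2 and Dnajc6, at 0.52, 0.63, 0.60 and 0.87 FPKM. Of the 43 genes listed for the release machinery, 20 were at most 0.05 FPKM in each water library, all 20 had reads in PS-MP replicate 3, and 13 reached 0.5 FPKM. A further 23 of the 43 are transcribed in liver above that limit, and 15 of these 23 were in PS-MP replicate 3 at least 2 times the highest water value, beside 538 of 13388 (4.02%) of all protein-coding genes above the limit in water.

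Peptide hormones and granins, the cargo of dense-core granules, were represented by Chgb, Scg5, Cck, Npy, Sst, Scg2, Pcsk2, Pcsk1n and Vgf, 9 of the 24 listed precursors that were at most 0.05 FPKM in water. Chgb, chromogranin B, was at 0.223, 0.0916 and 2.50 FPKM in PS-MP, against 0.0240, 0 and 0 in water. Scg5, a chaperone of the processing enzyme encoded by Pcsk2, was at 0.195, 0.120 and 1.97 FPKM in PS-MP, against 0 in water. Cck, cholecystokinin, had 1, 1 and 24 reads in PS-MP and none in water. Npy, neuropeptide Y, and Sst, somatostatin, peptides of cortical interneurons, had 9 and 10 reads in PS-MP replicate 3 and none in the other 5 libraries. Peptides of hypothalamic neurons on the same list, Avp, Oxt, Hcrt, Pmch and Trh, had 0 reads in PS-MP replicate 3.

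Receptors of excitatory and of inhibitory transmitters were included. Gria2, the AMPA receptor subunit that sets calcium permeability, had 31, 8 and 263 reads in PS-MP, against 0, 0 and 1 in water, and Gria1, another AMPA subunit, had 7, 4 and 96 reads in PS-MP, against 0, 1 and 0 in water. Glrb, the beta subunit of glycine receptors, had 9, 0 and 77 reads in PS-MP, against 0 in water. Cnr1, the cannabinoid receptor of nerve terminals, had 3, 0 and 49 reads in PS-MP, against 0 in water.

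All 13 ionotropic glutamate receptor genes that were at most 0.05 FPKM in water had reads in PS-MP replicate 3, but Gria1 and Gria2 alone reached 0.5 FPKM. Of serotonin, dopamine, adrenergic and muscarinic receptors none of the 24 genes below the water limit reached 0.5 FPKM, and 10 had no read in PS-MP replicate 3. The share that reached 0.5 FPKM over all protein-coding genes below that limit was 1.87%.

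Both enzymes of GABA synthesis were included. Gad1 (chromosome 2, 70553072 to 70602014, plus strand), which makes GABA from glutamate, had 5, 3 and 79 reads in PS-MP, against 0 in water. Gad2, the vesicle-bound form of the enzyme, had 1, 2 and 55 reads in PS-MP, against 0 in water. Both genes had reads in each PS-MP library and in no water library.

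Promoter windows from RefSeq on GRCm38.p6, which run from 250 bases before to 50 bases after an annotated start, were held for 109 of the 146 genes by symbol and for 16522 protein-coding genes in all. They were searched on both strands for 4 motifs chosen after the genes were known. The core of the RE1 element was in a window of 2 of the 109 genes (1.83%), Gad2 and Gria2, and of 14 of all 16522 (0.0847%). The cAMP response element TGACGTCA was in 7 of 109 (6.42%), namely Chgb, Kif5c, Mapk10, Scg2, Sh3gl2, Sst and Tmem59l, and in 436 of all (2.64%). The TATA box TATAAA was in 11 of 109 (10.1%) and in 14.3% of all, and the GC box GGGCGG in 66 of 109 (60.6%) and in 51.0% of all. No motif contains another, and a match describes the letters and not a bound site.
The 4 windows below show the RE1 core of a receptor gene and a GABA enzyme gene, and the cAMP response element of 2 peptide and granin genes; they are written 5′ to 3′ on the strand of the gene, and capitals mark the match.
Gria2 (chr3:80802786-80803085, minus strand, match first base 170 bases before the start, on the other strand): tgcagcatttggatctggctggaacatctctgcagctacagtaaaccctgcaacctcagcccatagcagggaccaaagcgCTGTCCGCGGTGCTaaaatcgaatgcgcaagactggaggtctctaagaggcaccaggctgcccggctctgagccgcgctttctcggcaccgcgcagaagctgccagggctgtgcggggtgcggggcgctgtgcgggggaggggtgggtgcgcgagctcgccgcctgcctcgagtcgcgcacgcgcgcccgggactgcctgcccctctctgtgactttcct
Gad2 (chr2:22622077-22622376, plus strand, match first base 163 bases before the start): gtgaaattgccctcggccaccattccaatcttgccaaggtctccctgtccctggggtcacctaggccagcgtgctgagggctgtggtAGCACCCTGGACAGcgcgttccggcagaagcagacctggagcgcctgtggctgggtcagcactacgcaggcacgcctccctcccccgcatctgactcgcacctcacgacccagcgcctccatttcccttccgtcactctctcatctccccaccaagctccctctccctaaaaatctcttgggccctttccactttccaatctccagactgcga
Sst (chr16:23890795-23891094, minus strand, match first base 48 bases before the start): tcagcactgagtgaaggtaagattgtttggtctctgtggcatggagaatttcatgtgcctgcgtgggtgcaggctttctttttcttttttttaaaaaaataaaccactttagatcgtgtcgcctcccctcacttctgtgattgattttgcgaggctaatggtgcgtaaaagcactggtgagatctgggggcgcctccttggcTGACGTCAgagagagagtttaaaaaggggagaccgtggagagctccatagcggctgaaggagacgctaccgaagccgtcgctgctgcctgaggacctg
Scg2 (chr1:79439977-79440276, minus strand, match first base 68 bases before the start): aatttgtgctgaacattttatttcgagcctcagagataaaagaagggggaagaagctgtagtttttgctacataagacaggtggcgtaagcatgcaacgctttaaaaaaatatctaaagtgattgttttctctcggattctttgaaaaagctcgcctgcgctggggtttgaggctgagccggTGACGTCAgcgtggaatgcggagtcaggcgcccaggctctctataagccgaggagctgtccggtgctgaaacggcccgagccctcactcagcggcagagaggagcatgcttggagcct

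Voltage-gated channels of axons were part of the set. Scn2a and Scn8a, pore subunits of neuronal sodium channels, had 14, 5 and 108 reads and 11, 4 and 142 reads in PS-MP, against 0, 0 and 2 and 6, 4 and 2 reads in water. For Scn8a the value of PS-MP replicate 2 lay within the water values. Scn2b, a beta subunit, had 4, 1 and 57 reads in PS-MP, against 0 in water. Of the 11 listed sodium channel genes below the water limit, 3 were among the 146, beside 1.87% of all protein-coding genes below it. Scn4a, the sodium channel of skeletal muscle, and Scn10a, that of sensory neurons, are on the same list and are not among the 146 genes. Nor are the listed Scn1a and Scn3a. Of 20 listed potassium channel genes below the water limit 1 was included, Kcnv1 (3, 2 and 42 reads in PS-MP, against 0 in water). The inward rectifier Kcnj9, which is on no list, was included too. No voltage-gated calcium channel gene was included, although 10 of the 12 below the water limit had reads in PS-MP replicate 3.

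Calcium sensors and kinases include, beside Vsnl1 and Camk2a, Hpca (hippocalcin; 6, 7 and 88 reads in PS-MP, against 0 in water) and Hpcal4 (11, 6 and 151 reads in PS-MP, against 0 in water). Camkk1, a kinase that activates calcium-dependent kinases, had 1, 7 and 32 reads in PS-MP, against 0, 2 and 1 in water. It was 1 of 15 genes with a higher FPKM in PS-MP replicate 2 than in replicate 1, and 121 genes had the opposite order. Gnao1, the G protein alpha subunit abundant in brain, had 25, 14 and 126 reads in PS-MP, against 8, 4 and 8 in water, and its exons overlap those of another gene.

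The postsynaptic genes were Ddn, which encodes dendrin, Shank1 and Dlgap3, scaffolds of the excitatory synapse, Cnksr2, and the activity-regulated gene Arc. Ddn had 13, 4 and 112 reads in PS-MP, against 0, 2 and 1 in water. Shank1 had 15, 9 and 100 reads in PS-MP, against 3, 3 and 1 in water, and Arc had 10, 4 and 42 reads in PS-MP, against 2, 1 and 0 in water. In each of these 3 genes the PS-MP values lay above the water values, which the rule held low.

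The cytoskeleton and transport group had 14 genes. Kif5c and Kif1a, kinesin motors that carry cargo along axons, had 280 and 277 reads in PS-MP replicate 3. The light and medium neurofilament genes Nefl and Nefm had 11, 1 and 82 reads and 10, 1 and 91 reads in PS-MP, against 0 and 0, 0 and 2 reads in water. Tubb3, the tubulin of neurons, had 2, 0 and 29 reads in PS-MP, against 1, 0 and 1 in water. Stmn2 and Gap43, proteins of growing axons, had 3, 0 and 66 reads and 1, 0 and 32 reads in PS-MP, against 0 in water for both.

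Among regulators of RNA and DNA, Rbfox1, a splicing factor of neurons and muscle, had 5, 4 and 105 reads in PS-MP, against 0, 0 and 1 in water. Elavl3 and Elavl4, RNA-binding proteins of neurons, had 6, 0 and 70 reads and 4, 0 and 49 reads in PS-MP, against 0 in water for both. Neurod6, a transcription factor of cortical excitatory neurons, had 1, 0 and 24 reads in PS-MP and none in water.

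Marker lists for cell classes, regions and other tissues place the set, as the plot of marker lists shows. Because the rule can choose only genes that liver lacks, each list was read over its genes at most 0.05 FPKM in each water library. Of such genes, 13 of 14 pan-neuronal markers, 6 of 10 markers of excitatory forebrain neurons and 7 of 15 of inhibitory neurons were among the 146, as were 2 of 8 oligodendrocyte markers. The share over all protein-coding genes below the water limit was 1.87%. None of 6 markers of oligodendrocyte precursors, 4 of astrocytes, 2 of brain endothelium and 7 of ependyma and choroid plexus was included, and no microglia marker was below the water limit. These counts describe the rule's choice and were not tested.

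Per gene, the mean level in PS-MP replicate 3 was 2.15 FPKM over the 14 pan-neuronal markers and 1.41 FPKM over the 10 excitatory ones. It was 0.391 FPKM over the 15 inhibitory, 0.361 over the 4 astrocyte, 0.300 over the 8 oligodendrocyte and 0.0234 FPKM over the 7 ependymal and choroid plexus markers. The excitatory markers Slc17a7, Camk2a and Hpca led their list at 2.40, 6.02 and 2.02 FPKM, and Tbr1 (25 reads), Neurod2 (19) and Rorb (29) stayed under 0.5 FPKM. In the inhibitory list, Npy, Lamp5, Sst, Gad1, Pvalb and Gad2 were among the 7 that passed, Slc32a1, the vesicular GABA transporter, stayed at 0.22 FPKM with 9 reads, and Dlx2, Dlx5 and Dlx6 had 0 reads.

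Oligodendrocyte transcripts were led by Mobp, a myelin protein (chromosome 9, 120149707 to 120181484, plus strand), with 10, 2 and 114 reads in PS-MP, against 0 in water. Cldn11, the claudin of myelin, had 15 reads in PS-MP replicate 3 and none in the other 5 libraries. Mbp, the gene of myelin basic protein, is not among the 146, since water was above the limit. It had 22, 21 and 236 reads in PS-MP, against 15, 11 and 18 reads in water, with PS-MP replicates 1 and 2 far nearer to water than to PS-MP replicate 3.

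Astrocyte genes below the water limit were Gjb6, Mlc1, Ntsr2 and Slc6a11, with 19, 17, 15 and 18 reads in PS-MP replicate 3 and levels of 0.24 to 0.48 FPKM, under the rule's threshold. The glutamate transporter gene Slc1a3 had 11, 1 and 132 reads in PS-MP, against 13, 5 and 10 in water. Of the 11 astrocyte markers above the limit in water, 5 were in PS-MP replicate 3 at least 2 times the highest water value, beside the 4.02% of all protein-coding genes above the limit. Over markers with at least 15 reads in all, the same count was 9 of 10 pan-neuronal, 3 of 5 excitatory and 4 of 11 oligodendrocyte. It was 0 of 8 for microglia, 0 of 6 for brain endothelium and 0 of 2 for inhibitory neurons. Oligodendrocyte precursors, and ependyma and choroid plexus, also gave 0 of 2 each. The cortex and hippocampus list gave 1 of 6.

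**Figure D3:**
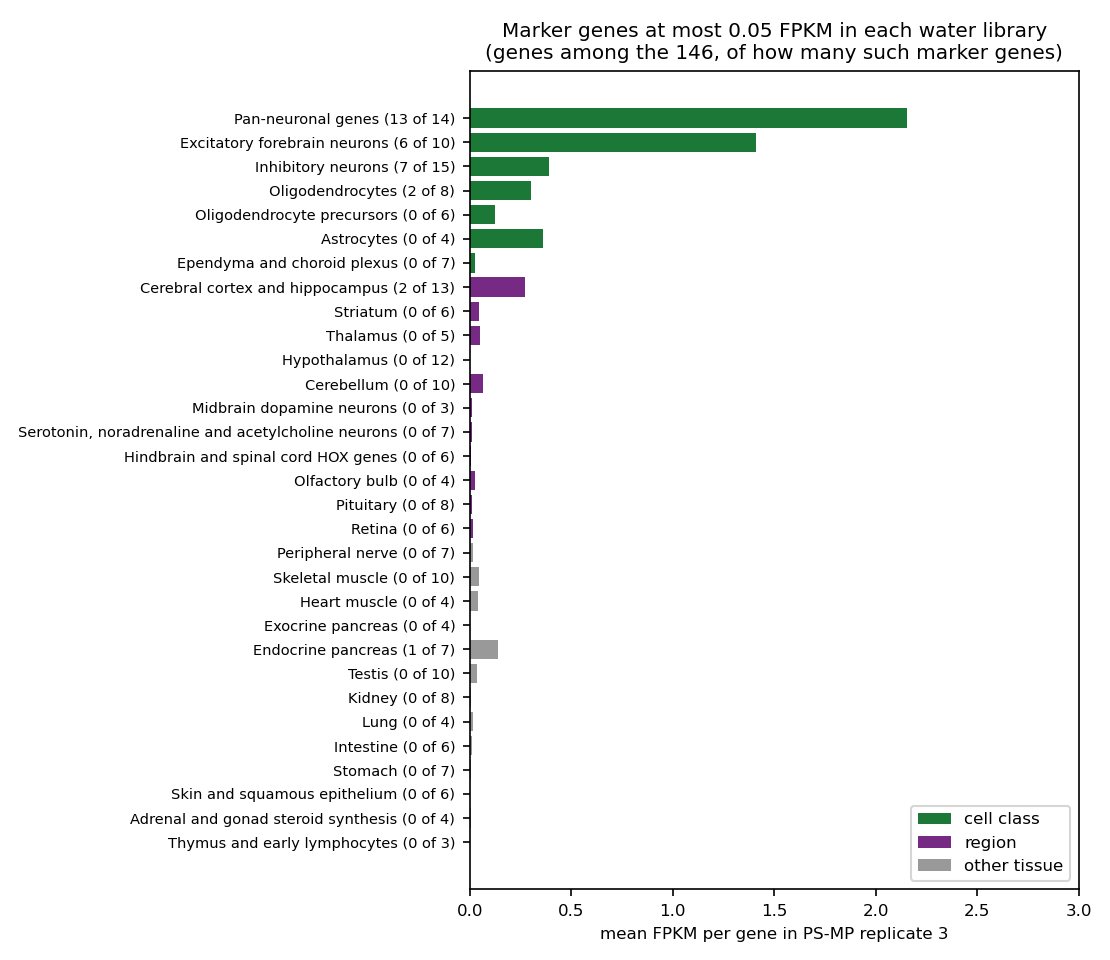
Mean FPKM per gene in PS-MP replicate 3 (horizontal axis) for marker lists of brain cell classes, brain regions and other tissues with at least 3 genes at most 0.05 FPKM in each water library, taken over those genes. The numbers after each name give how many of them are among the 146 genes; pan-neuronal (2.15) and excitatory forebrain markers (1.41) stand above the rest, and Sst is the 1 gene of the endocrine pancreas list.

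By region, the list of cerebral cortex and hippocampus had 2 of 13 genes among the 146, Neurod6 and Lamp5. The share over all protein-coding genes below the water limit was 1.87%. The other regional lists had none, which in lists this short is near that share. The 13 cortical and hippocampal genes had 11, 2 and 175 reads in PS-MP replicates 1, 2 and 3, against 2, 5 and 2 in water, with Tbr1, a transcription factor of deep cortical layers, at 25 reads and 0.31 FPKM in PS-MP replicate 3. Fibcd1 and C1ql2, genes of hippocampal fields, had 0 reads there.

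Levels in PS-MP replicate 3 averaged 0.273 FPKM over the cortical and hippocampal genes. They averaged 0.0631 over 10 cerebellar, 0.0492 over 5 thalamic and 0.0472 over 6 striatal genes. The cerebellar sum of 40 reads rested on Calb1, which cortex also expresses, with 24 reads, while Gabra6, of cerebellar granule cells, had 0 and Cbln1 had 3. Slc17a6, the glutamate transporter of thalamus and brain stem, was at 0.10 FPKM in PS-MP replicate 3, where Slc17a7 was at 2.40. Striatal genes gave 3 reads of Drd1 and 0 of Drd2 and Tac1 in PS-MP replicate 3.

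Among genes below the water limit, reads were few for the other brain regions and for related tissues. The 12 hypothalamic genes had 0 reads in PS-MP replicate 3, the 3 midbrain dopamine genes had 1 and the 7 serotonin, noradrenaline and acetylcholine genes had 3. The 6 HOX genes of hindbrain and spinal cord had 2 reads, the 8 pituitary genes 5 and the 6 retinal genes 11. At these numbers a small contribution was not detectable.

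For other tissues, 73 marker genes that are on no brain list were below the water limit, and none was among the 146. The share over all protein-coding genes below that limit was 1.87%, so a count of 0 among 73 is not far from it. The 7 peripheral nerve genes had 8 reads in PS-MP replicate 3, and Pmp2 and Foxd3 had 0. The 10 skeletal muscle genes had 14 reads, the 10 testis genes 4, the 8 kidney genes 6 and the 7 stomach genes 3. The 4 heart genes had 67 reads, all of Ryr2, a calcium release channel that neurons also express, while Myh6, Nppa and Mybpc3 had 0. On the endocrine pancreas list Sst had 10 reads, whereas Ins1, Ins2, Ppy and Iapp had 0.

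The 6 brown fat markers and 6 of the 7 white fat markers were above the limit in water, so the rule could not choose them. The other white fat marker had no read in PS-MP replicate 3. Fat markers above the limit were uneven over the libraries. Ucp1, which lets brown fat cells produce heat, had 0, 0 and 68 reads in PS-MP replicates 1, 2 and 3, against 139, 0 and 15 in water replicates 1, 2 and 3. Cfd (adipsin) had 0, 0 and 74 reads in PS-MP, against 204, 5 and 73 in water, and Adipoq (adiponectin) had 0, 0 and 29 reads in PS-MP, against 76, 3 and 13 in water. Plin1, a lipid droplet protein of fat cells, had 0, 1 and 36 reads in PS-MP, against 99, 0 and 25 in water, and Cidea had 0, 0 and 17 reads in PS-MP, against 47, 0 and 19 in water. PS-MP replicate 3 thus held fat transcripts beside the neuronal ones. For these 5 genes water replicate 1 was higher still. The 146 genes had 95 reads there, but the rule held each of them to at most 0.05 FPKM in that library. The part of fat in the values of the 146 genes was not tested.

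PS-MP replicates 1 and 2, which did not enter the rule, had fewer reads of the same genes. At least 1 read was found for 133 genes in replicate 1 and for 102 in replicate 2. Among the 2553 protein-coding genes that were below the water limit and had a read in any library, the shares were 47.5% and 42.3%. PS-MP replicate 1 was above the highest water library in 130 of the 146 genes, beside 37.9% of the 2553, and replicate 2 in 87, beside 26.8%. In 83 genes all 3 PS-MP libraries lay above all 3 water libraries, beside 11.5%. PS-MP replicate 3 entered the rule at its high end and water at its low end, so that part of this order is fixed. The 146 are among the 2553 and were chosen for at least 0.5 FPKM in PS-MP replicate 3. Most of the 2553 were lower there, so these shares compare sets of unlike level. No read was found in PS-MP replicate 1 or 2 for 10 genes.

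The level of the 146 genes in PS-MP replicate 1 was 9.04% of that in replicate 3 by summed FPKM, and by reads 9.70% (95% interval 9.11% to 10.3%, exact binomial, counting error only). In replicate 2 it was 2.85% by summed FPKM, and 3.02% by reads (2.73% to 3.33%). The 2 single-library ratios thus differed beyond counting error, and with 1 library each there is no test between them. With the water level subtracted from both, they were 8.53% and 2.31%.

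Single genes varied about these ratios, as the scatter of reads per gene shows. Over the 39 genes with at least 100 reads in PS-MP replicate 3, the level in replicate 1 ran from 3.66% (Zfp365) through a median of 9.55% to 22.6% (Gnao1) of that in replicate 3. In replicate 2 it ran from 0 (Rph3a and Cntn1) through a median of 2.53% to 10.4% (Gnao1). Gnao1 also had 20 reads in water.

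**Figure D4:**
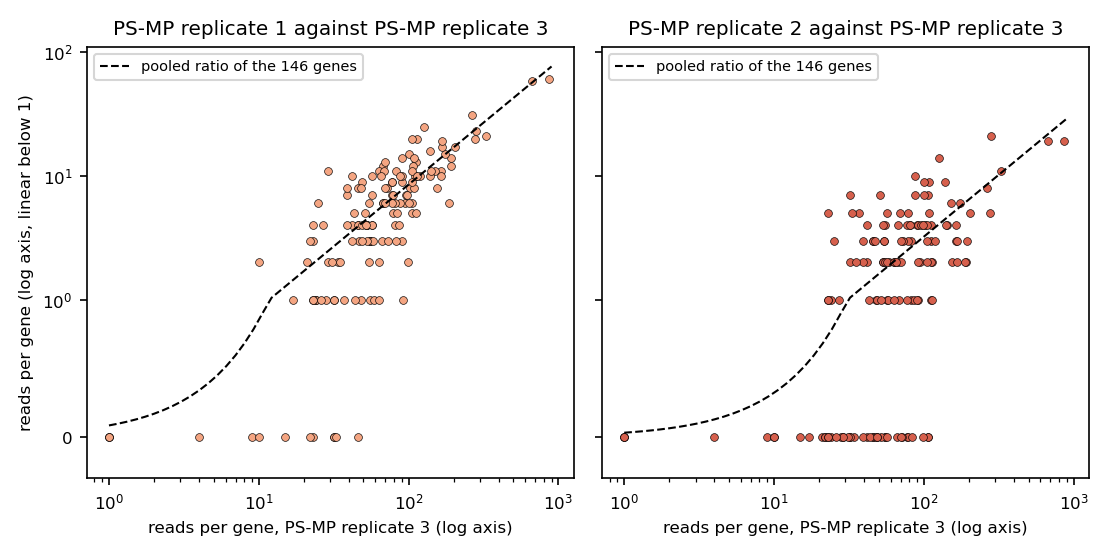
Reads per gene in PS-MP replicate 1 (left) and replicate 2 (right) on the vertical axis, log above 1, against reads in PS-MP replicate 3 on a log horizontal axis, each point 1 of the 146 genes. The dashed line is the pooled ratio of the 146 genes by reads (9.70% and 3.02% after scaling to library totals); genes at 0 on the vertical axis had no read there.

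Grouped by role, most intervals held the pooled ratio. Vesicle release genes stood at 8.10% (6.89% to 9.45%) in replicate 1 and 2.59% in replicate 2 of their level in replicate 3, the first interval lying just below the pooled 9.70%. Receptor genes stood at 11.1% (9.00% to 13.6%) and 1.86% (1.15% to 2.86%), the second interval lying below the pooled 3.02%. Cytoskeleton and transport genes stood at 9.74% (8.07% to 11.7%) in replicate 1, and the myelin genes at 8.84% (4.14% to 16.8%) and 1.45% (0.174% to 5.35%). GABA synthesis and uptake stood at 9.17% (5.14% to 15.3%) and 3.29% (1.31% to 6.91%). The 5 postsynaptic genes stood at 17.0% (12.5% to 22.6%) and 5.93% (3.71% to 9.04%), with both intervals above the pooled ratios; with water subtracted they stood at 15.9% and 4.68%. These groups were formed after the genes were known and 13 were looked at, so these differences are a description.

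**Figure D5:**
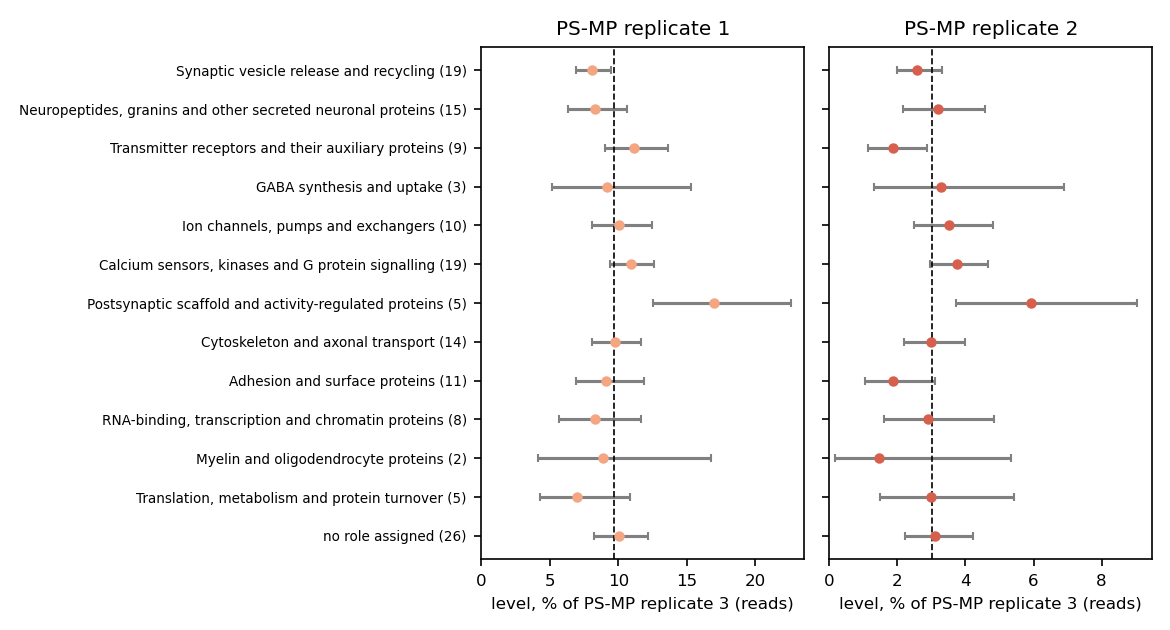
Level in PS-MP replicate 1 (left) and replicate 2 (right) as a percentage of the level in PS-MP replicate 3, by reads scaled to library totals, for each role group (number of genes in parentheses). Bars are exact 95% binomial intervals that cover counting error only, and the dashed line is the value over the 146 genes; the 5 postsynaptic genes (17.0% and 5.93%) lie to the right of it.

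A further 904 protein-coding genes were below the water limit and between 0.05 and 0.5 FPKM in PS-MP replicate 3, limits that fix part of their order over the libraries. They had 1673, 1189 and 13332 reads in PS-MP replicates 1, 2 and 3, against 1995 in the 3 water libraries together. By reads their level was 14.3% of replicate 3 in replicate 1 and 8.35% in replicate 2. With the mean water level subtracted it was 9.98% and 3.72%, beside 9.07% and 2.34% for the 146 genes, so the 2 sets were closer once the water level was taken off.

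In the comparison of the groups across the transcriptome, the 146 genes hardly entered. Only 6 of them, among them Camk2a, Snap25, Kif5c, Gnao1 and Ntrk2, had enough reads in 3 libraries to be tested. With limma-trend, which fits log2 FPKM of each gene with a spread shared across genes, 65 of 13299 genes (0.489%) passed an adjusted p of 0.05, 32 of them higher in PS-MP (0.241%), and 0 were among the 146. Of the 6, 2 had an unadjusted p under 0.05 with limma-trend. With limma-voom on recovered reads 0 of the 6 were called and 3 had an unadjusted p under 0.05. The rule used this contrast, so the counts are a description. Of the 606 genes of the marker and function lists 159 were tested, and none of these passed, in either direction.

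Position of the 146 genes was not named by the rule, but exon length entered it through FPKM. On a short gene each read gives more FPKM, at both limits, so the lengths below are not independent of the rule. The 146 genes lie on 19 autosomes and the X chromosome. The 15 on chromosome 2 are 0.814% of its protein-coding genes, the 12 on chromosome 15 are 1.53% and the 5 on X are 0.527%, beside 0.663% over all chromosomes. Their merged exons had a median of 4654 bases, against 2294 bases in the other 7651 protein-coding genes below the water limit, and 3488 bases over all protein-coding genes. The median span on the chromosome was 41998 bases, against 8674 and 17318 bases. Exons of 30 of the 146 overlap those of another annotated gene, among them Vxn, Hpca, Ddn, Uchl1, Chn1, Nefl, Nefm, Gria2, Mobp, Syn2, Elavl3 and Bsn, and their reads are less certain because no source used here says whether counting used strand.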

How the data were processed

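RNA sequencing of mouse liver gave 6 libraries, 3 from mice dosed with PS-MP and 3 from mice given water, grouped and numbered by the labels. The authors deposited FPKM for each gene in each library. The submitters' processing notes name CASAVA, FastQC, MultiQC, Trimmomatic 0.38, HISAT2 2.1.0, featureCounts 1.6.0 and DESeq2 1.22.1, with the human build GRCh38. All 55536 gene identifiers are those of GENCODE M21 on the mouse build GRCm38, which gave symbols, gene types, exon lengths and coordinates.

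FPKM times merged exon length gave whole numbers within 0.001 reads for 100% of values, which recovered the reads; totals ran from 13082210 to 16948343. Intervals are exact binomial at 95% and cover counting error only.

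The groups were compared with limma-trend (limma 3.58.1, R 4.3.3) on log2(FPKM + 0.5), with Benjamini-Hochberg adjustment at 0.05 over genes with at least 10 reads' worth of CPM in a library of median size in 3 libraries and 15 reads in all. The procedure was tested on simulated data. The pseudocount understates changes of genes with low values.

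The 146 genes and the gene lists were chosen with earlier results of these data known. Named genes are the 20 highest in PS-MP replicate 3, up to 3 per list, genes next to a threshold, members of small counts and genes in the comparison across all genes; others were named after their values were seen. Some genes that meet this rule are not reported here. Alternatives covered the thresholds, scaling, low-count rule, pseudocount, model, replicate block and each library left out.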

Additional observations from a re-analysis of the deposited data

Results flagged for a closer look

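Genes of other types were not used above. Under the same thresholds 115 genes that are not protein-coding passed, of which 111 had under 10 reads in PS-MP replicate 3 and 4 had at least 10. Of the 111, 35 were microRNAs, 24 snRNAs and 19 snoRNAs, and some were as high in PS-MP replicates 1 or 2, such as the processed pseudogene Gm46379 with 4, 6 and 5 reads in PS-MP, against 0 in water. The 4 and this one were named after their values were seen. Miat, a long non-coding RNA of neurons, had 10, 2 and 100 reads in PS-MP replicates 1, 2 and 3, against 1, 0 and 0 in water. Mir124a-1hg, the host of the brain microRNA miR-124, had 10, 2 and 58 reads in PS-MP, against 0 in water. B230209E15Rik had 2, 4 and 18 reads, and Gm44559 2, 0 and 14 reads in PS-MP, against 0 in water for both. Exons of Miat and Mir124a-1hg overlap those of another gene.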

How the results depend on the processing

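The number of genes followed the thresholds. It was 337 with at least 0.25 FPKM in PS-MP replicate 3, 48 with at least 1 FPKM and 261 with genes of all types, against 146. The other settings of the rule gave 108 (at most 0.02 FPKM in water) to 191 (at most 0.1 FPKM), and leaving out 1 water library gave 151 to 163. Of the 48 genes at 1 FPKM or more, 47 had a read in PS-MP replicate 1 and 41 in replicate 2. Leaving out 1 water library gave 137 to 145 and 107 to 115 such genes.

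The level in PS-MP replicate 1 was 9.70% of replicate 3 by summed reads and 8.34% as the median over genes, and 9.12% to 9.61% with 1 water library left out of the rule. In replicate 2 it was 2.23% as the median over genes, 2.31% with water subtracted, and 3.09% to 3.72% with 1 water library left out of the rule. Leaving out overlapping genes, or genes under 10 reads, was chosen after seeing the data and moved neither level beyond counting error.

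Genes changed between the groups numbered 65, but 0 with no filter on low values (2064 had an unadjusted p under 0.05 with limma-trend), 131 with limma-voom and 23 with the replicate block. Leaving out 1 library gave 34, 15 and 12 without PS-MP replicate 1, 2 or 3, and 3, 30 and 0 without water replicate 1, 2 or 3. The replicate numbers were not taken to pair the samples. Correlations of same-numbered deviations were -0.04, 0.05 and -0.01, and differently numbered ones ran from -0.05 to 0.07. With values this alike, the correlations cannot decide whether the samples are paired. The count among the 146 genes was 0 in every fit, but 0 of them were tested without PS-MP replicate 1 or 3 and 1 without PS-MP replicate 2, where it could hardly be otherwise. Depth limits regions and tissues with few reads.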
